A study of Mus musculus with 10 samples.

Results

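CD8 T cells of mouse colorectal carcinoma that carried transcripts of granzyme K without those of granzyme B were described from droplet single-cell RNA sequencing of the 5′ end of transcripts, with sequencing of the T cell receptor (TCR) in the same cells. A cell was taken when it had at least 300 detected genes, at most 10% mitochondrial UMIs (unique molecular identifiers, each counting a captured transcript), a productive TCR beta chain (TRB), at least 2 UMIs of Cd8a and Cd8b1 together and no Cd4. Among these CD8-gated cells, the Gzmk-only cells had at least 1 UMI of Ccl5, at least 1 of Gzmk and 0 of Gzmb. The rule found 189 cells among 2771 CD8-gated cells and 22590 barcodes in all. The other 2582 CD8-gated cells fell into Gzmb cells (at least 1 Gzmb UMI, 579 cells), Ccl5-only cells (Ccl5 without either granzyme, 657 cells) and Ccl5-negative cells (1346 cells). The study compared tumours given S. chamaejasme (a flowering plant, Stellera chamaejasme) with anti-PD-1, an antibody against an inhibitory receptor of T cells (called the combination here), tumours given S. chamaejasme alone, and untreated tumours. These groups had 2, 1 and 2 libraries of each kind, and no group received anti-PD-1 alone. The labels give no mouse strain, tumour model, age, dose or day, and do not say whether libraries of a group came from separate animals, so p-values measure the spread between these samples. No batch is named in the labels, so treatment and any batch that ran along with it cannot be told apart.

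Granzyme K and granzyme B are serine proteases stored in the granules of killer lymphocytes. Granzyme B cleaves caspases and other proteins of the target cell, while granzyme K has a different substrate preference and a weaker tie to killing. CD8 T cells with Gzmk but little Gzmb are known from tumours, inflamed tissue and old age as effector memory cells that make the chemokine CCL5. Because UMIs of a transcript are sampled, a cell with 0 Gzmb UMIs can still hold Gzmb transcripts. In GRCm38, Gzmk (ENSMUSG00000042385) lies at chr13:113171608-113225908 on the minus strand, and Gzma (ENSMUSG00000023132), which encodes granzyme A, lies on the same strand at chr13:113093825-113100981, 70626 bases away with 3 annotated genes between. Gzmb (ENSMUSG00000015437) is on another chromosome, at chr14:56258838-56262260 on the minus strand.

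A cell's TCR marks the clone it descends from, so the sequence of the CDR3, the loop that contacts the antigen peptide, shows which cells are kin. The CDR3 sequences below belong to clones among those with most Gzmk-only cells in 3 libraries and are shown because the same receptor was carried by cells of other CD8 classes. They are read from the deposited contigs, 5′ to 3′, with capitals for junction bases that matched neither the V nor the J segment of the germline. TRB lies on chromosome 6 and the alpha chain locus, TRA, on chromosome 14.
S. chamaejasme clone a, TRB (TRBV19, TRBJ1-2): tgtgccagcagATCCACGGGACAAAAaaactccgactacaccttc
S. chamaejasme clone b, TRB (TRBV13-3, TRBJ1-4): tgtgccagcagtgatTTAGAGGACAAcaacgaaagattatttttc
S. chamaejasme clone b, TRA (TRAV14D-2, TRAJ45): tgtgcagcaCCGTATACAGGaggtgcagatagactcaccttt
untreated 2 clone a, TRB (TRBV5, TRBJ2-4): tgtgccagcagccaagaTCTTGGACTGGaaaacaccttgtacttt
untreated 2 clone a, TRA (TRAV14D-2, TRAJ34): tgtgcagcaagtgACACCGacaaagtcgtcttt
untreated 2 clone b, TRB (TRBV13-1, TRBJ2-2): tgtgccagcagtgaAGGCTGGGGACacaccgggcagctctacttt
combination 2 clone b, TRB (TRBV17, TRBJ1-2): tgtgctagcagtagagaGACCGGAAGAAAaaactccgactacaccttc
combination 2 clone b, TRA (TRAV16N, TRAJ27): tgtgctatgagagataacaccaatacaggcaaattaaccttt
The last of these alpha chains had no base outside its germline segments. Clone a of the S. chamaejasme library counted 18 CD8-gated cells, of which 7 were Gzmk-only, 8 Gzmb and 3 Ccl5-only. Clone b of that library counted 42 cells, with 6 Gzmk-only, 18 Gzmb, 15 Ccl5-only and 3 Ccl5-negative. In untreated library 2, clone a had 17 cells (5 Gzmk-only, 7 Gzmb, 4 Ccl5-only, 1 Ccl5-negative) and clone b had 6 (4 Gzmk-only, 1 Gzmb, 1 Ccl5-only). Clone b of combination library 2 had 5 cells, with 3 Gzmk-only, 1 Gzmb and 1 Ccl5-only. In each of these 5 clones, Gzmk-only and Gzmb cells carried the same receptor.

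The RNA libraries held 27759543 and 26015879 UMIs (combination), 19999977 UMIs (S. chamaejasme) and 8763821 and 15428707 UMIs (untreated). Cell barcodes shared between pairs of libraries numbered 14 to 54, and no Gzmk-only barcode was Gzmk-only in another library. Gzmk-only barcodes found at all in the other library of a pair occurred only in pairs with the S. chamaejasme library. They numbered 2 with combination library 1, 1 with combination library 2 and 1 with untreated library 1. Gzmk-only cells had a median of 5750 and 4886 UMIs in the combination libraries, 3937 in the S. chamaejasme library and 4435 and 3232 in the untreated libraries, against 6087, 5955, 4123, 4618 and 4770 in the other CD8-gated cells of the same libraries. The label was checked against defining genes. Cd3e was found in 98.4% of Gzmk-only cells and Cd3g in 96.8%. Trac was found in 61.4% of them, against 57.2% of Gzmb, 61.9% of Ccl5-only and 56.7% of Ccl5-negative cells. In untreated library 2 these Trac shares were 30.4%, 63.2%, 73.2% and 53.3%. Of lists of other cell types, the neutrophil and red blood cell markers were at 0, and macrophage markers summed to 13 UMIs with Csf1r and C1qa to C1qc at 0. B cell markers summed to 48.5 to 222 CPM (counts per 1000000 UMIs of the summed cells) per library in Gzmk-only cells, against 36.5 to 71.3 CPM in the other CD8-gated cells, with Cd79a and Ms4a1 among those at 0 in the Gzmk-only cells. Gamma delta T cell markers, mainly Trgv2, reached 0 to 178 CPM, against 33.3 to 238 CPM in the other cells. Macrophage markers came to 0 to 27.8 CPM in Gzmk-only cells, against 2.68 to 8.59 CPM in the other cells. Dendritic cell markers were at 21.99 to 48.5 against 8.93 to 26.9 CPM. NK cell markers were at 6.72 to 98.9 against 10.4 to 40.1 CPM. Regulatory T cell markers were at 439.8 to 954 against 289.8 to 509.7 CPM. Helper T cell markers were at 60.1 to 158 against 76.6 to 225 CPM. Epithelium and stroma markers were at 16.2 to 35.4 against 25.96 to 38.7 CPM. No alpha chain of the invariant NKT or MAIT kind was found among 171 Gzmk-only cells with a TRA contig.

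The cells were chosen by their UMIs of Cd8a, Cd8b1, Cd4, Ccl5, Gzmk and Gzmb, so these values are given as a description. In 101 of the 189 cells (53.4%) Gzmk rested on 1 UMI, in 27 on 2 and in 61 on at least 3, with a highest value of 17. The median Ccl5 count was 71 UMIs and only 3 cells rested on 1 Ccl5 UMI, so the Gzmk and Gzmb counts set the edge of the class. Just outside it, 36 cells with Gzmk had 1 Gzmb UMI, 9 had a Cd8a and Cd8b1 sum of 1, 6 had 1 Cd4 UMI and 2 lacked Ccl5. Of the 579 Gzmb cells, 243 (42.0%) also had Gzmk. A Gzmk UMI was found in 11.4% and 13.1% of CD8-gated cells in the combination libraries, 19.6% in the S. chamaejasme library and 23.5% and 13.95% in the untreated libraries. In CD4 cells, a class not marked by Gzmk, the same shares were 1.52% and 1.37%, 2.10%, and 1.23% and 0.683%, at median depths of 3870 to 5403 UMIs against 4101 to 6058 in CD8-gated cells.

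Gzmk-only cells made up 28 of 641 and 52 of 710 CD8-gated cells in the combination libraries, 72 of 744 in the S. chamaejasme library and 14 of 289 and 23 of 387 in the untreated libraries. As shares these are 4.37% (95% exact binomial interval 2.92 to 6.25) and 7.32% (5.52 to 9.49), 9.68% (7.65 to 12.03), and 4.84% (2.67 to 7.99) and 5.94% (3.80 to 8.78), where intervals cover counting error only. The combination libraries averaged 5.85% ± 2.09 and the untreated libraries 5.39% ± 0.777 (SD, n = 2 each), a difference of 0.452 points that was smaller than the spread within the combination group. A two-sided exact permutation test gave p = 1, where 2 against 2 cannot go below 0.333. The difference was -1.03 points without combination library 2 and -0.0971 without untreated library 1, so its sign depended on single libraries. The S. chamaejasme library had the largest share of CD8-gated cells of the 5, also after each cell was thinned to 2000 UMIs and gated again (5.34% and 5.89% in the combination libraries, 8.06% in the S. chamaejasme library, 3.77% and 5.40% in the untreated libraries, with 2 Gzmk-only and 34 other cells below that depth left out). With a single library this has no replicate check. The rank depended on the cells counted. Of the Gzmk-only, Gzmb and Ccl5-only cells together, Gzmk-only cells were 12.3% and 19.2% in the combination libraries and 13.1% in the S. chamaejasme library. In the untreated libraries they were 6.83% and 13.3%.

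**Figure D1:**
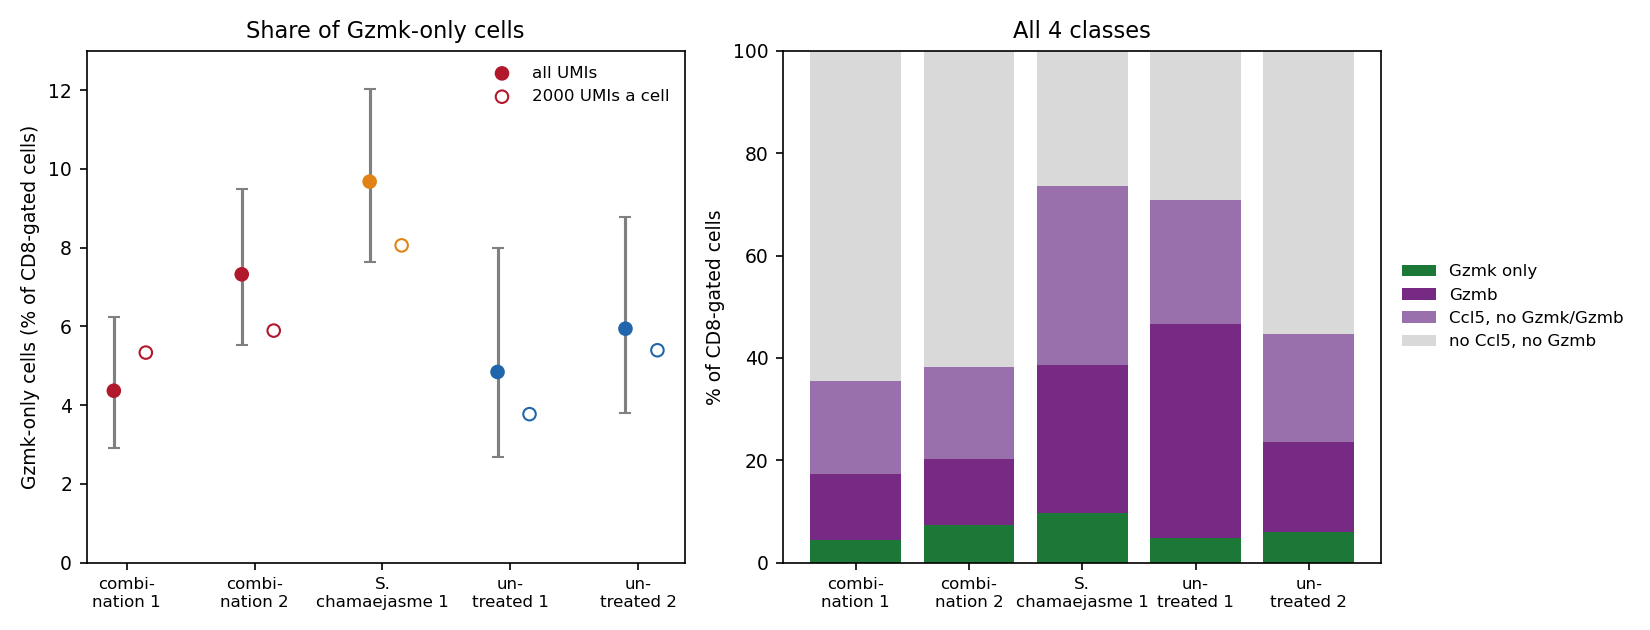
Left, Gzmk-only cells as a percentage of CD8-gated cells in each library with exact 95% binomial intervals, filled for all UMIs and open for cells thinned to 2000 UMIs; right, the 4 CD8 classes stacked to the whole of each library. The S. chamaejasme library is highest at 9.68%, and the combination and untreated libraries overlap between 4.37% and 7.32%.

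The shares of Gzmb and Ccl5-negative cells ran over wider ranges than that of Gzmk-only cells. Gzmb cells were 12.95% and 12.96% of CD8-gated cells in the combination libraries, 28.9% in the S. chamaejasme library and 41.9% and 17.6% in the untreated libraries. Ccl5-negative cells were 64.4% and 61.8%, 26.3%, and 29.1% and 55.3%, and Ccl5-only cells 18.3% and 17.9%, 35.1%, and 24.2% and 21.2%, in the same order of groups. A comparison with all other CD8-gated cells therefore sets Gzmk-only cells against a mixture that differs by library, and the Gzmb and Ccl5-only cells were also taken as separate references within each library.

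The nearest class was the Gzmb cells. Against them Gzmk-only cells had far less Gzma, and more of Cxcr3, a receptor that guides T cells to interferon-induced chemokines, Itga4, an integrin subunit for entry into tissue, and Ifng, the cytokine interferon gamma. UMIs were summed per library and class and compared within libraries by edgeR's quasi-likelihood test, with the library as a block. A sum needed at least 20 cells, which left out untreated library 1 with its 14 Gzmk-only cells, so the tests use 4 libraries. Of 6404 genes tested, 15 passed an adjusted p of 0.05 (0.234%), 6 higher (0.0937%) and 9 lower (0.141%), and 566 had an unadjusted p under that value.

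Gzma stood at 61.9 and 127 CPM in Gzmk-only cells of the combination libraries, 233 CPM in the S. chamaejasme library and 527 and 396 CPM in the untreated libraries. In Gzmb cells of the same libraries it stood at 2317 and 1896, 1722, and 1963 and 1022 CPM. The classes did not overlap in any library, and the log2 fold change was -3.27 ± 0.26 (SE, edgeR adjusted p = 1.79e-09). A Gzma UMI was found in 47 of 189 Gzmk-only cells (24.9%), against 45.6% of Gzmb cells, 8.98% of Ccl5-only cells and 1.93% of Ccl5-negative cells, and in CD4 cells the share was 1.78% to 2.48%. After thinning to 2000 UMIs the shares were 22.9% of Gzmk-only cells and 44.1% of Gzmb cells.

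Cxcr3 reached 124 and 223 CPM in Gzmk-only cells of the combination libraries, 148 CPM in the S. chamaejasme library and 128 and 188 CPM in the untreated libraries, against 84.3 and 96.4, 86.2, and 52.3 and 82.3 CPM in Gzmb cells. All 5 libraries were higher in the Gzmk-only cells, also the untreated library that the test left out (log2 fold change 0.93 ± 0.17, edgeR adjusted p = 0.00908). Ifng was 227 and 443, 526, and 228 and 458 CPM in Gzmk-only cells, against 187 and 223, 360, and 201 and 232 CPM in Gzmb cells (0.70 ± 0.13, adjusted p = 0.0111). Itga4 was 284 and 266, 186, and 185 and 261 CPM, against 167 and 107, 125, and 139 and 144 CPM (0.85 ± 0.16, adjusted p = 0.0111). For Cxcr3 and Itga4 the lowest Gzmk-only value lay above the highest Gzmb value. The other called genes higher in Gzmk-only cells were Ms4a4b, a membrane protein of T cells (0.89 ± 0.15, adjusted p = 0.00293), Sidt1, a membrane protein that carries nucleic acids (1.03 ± 0.22, adjusted p = 0.0368), and Hspa1a, an inducible heat shock protein (0.98 ± 0.18, adjusted p = 0.00675). Hspa1a was the only gene called among 15 dissociation and heat shock genes.

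Besides Gzma, lower levels were called for Il4ra, the receptor chain shared by interleukins 4 and 13 (-0.93 ± 0.15, adjusted p = 0.00253), Litaf, a lysosomal regulator (-1.13, adjusted p = 0.0111), Serpinb6b, a serpin of the family that inhibits granule proteases (-0.94 ± 0.21, adjusted p = 0.0368), Crem, a cAMP-responsive transcription factor (-0.89, adjusted p = 0.0302), the filament protein Vim (-0.59, adjusted p = 0.0302) and the chromatin protein Ptma (-0.36, adjusted p = 0.0302). The remaining calls fell outside the rule for naming genes and are named after their values were seen: the TCR segment Trbv20 and Fcer1g, a signalling chain of NK cells and innate-like T cells. Fcer1g had 0 UMIs in the 189 Gzmk-only cells, which allows up to 1.59% of cells with a UMI, and 119 UMIs in Gzmb cells. Against a floor of 3 counts over all libraries it was at least 12.3-fold lower than in Gzmb cells, and at least 14.98-fold lower than in Ccl5-only cells.

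Among the genes named by the rule, only Gzma and Il4ra were called whichever of the 4 libraries was left out. Without combination library 2, Cxcr3 (0.78, adjusted p = 0.203), Ms4a4b (0.66, adjusted p = 0.108), Itga4 (0.69, adjusted p = 0.205), Ifng (0.57, adjusted p = 0.205), Sidt1 (1.0, adjusted p = 0.212) and Crem (-0.67, adjusted p = 0.314) missed the threshold. Without combination library 1, Sidt1 (1.13, adjusted p = 0.0692), Hspa1a (0.92, adjusted p = 0.105), Itga4 (0.90, adjusted p = 0.063), Litaf (-0.97, adjusted p = 0.147) and Crem (-0.98, adjusted p = 0.0663) did, and without the S. chamaejasme library Sidt1 (1.0, adjusted p = 0.136), Ifng (0.79, adjusted p = 0.0519) and Crem (-0.94, adjusted p = 0.0895) did. Without untreated library 2, Sidt1 (1.0, adjusted p = 0.0721) and Ifng (0.65, adjusted p = 0.0526) missed it. Serpinb6b, Vim and Ptma were lost without at least 3 of the 4 libraries in turn, with adjusted p up to 0.3. When all 5 libraries entered with sums of at least 10 cells, an alternative chosen after seeing the data, 29 genes were called. Cxcr3 (0.99, adjusted p = 0.00173), Ifng (0.64, adjusted p = 0.0101) and Itga4 (0.85, adjusted p = 0.00789) were among them. After thinning to 2000 UMIs, with 3 libraries, Gzma (-3.48), Ms4a4b (0.92), Il4ra (-1.44) and Crem (-1.64) were called, and Cxcr3 (0.96) was not, at an adjusted p of 0.271.

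Lists of genes by function gave few calls between these classes. Of all genes tested 0.234% were called, so 0 calls in a short list says little about that list. Of 16 measured cytotoxic granule genes 0 were higher and 2 lower (Gzma and Serpinb6b). Of 19 naive, memory and stem-like genes, 15 inhibitory receptor and exhaustion genes, 14 terminal effector genes, 12 tissue residency genes and 17 costimulatory receptor genes, 0 passed the test in either direction. Their median log2 differences were 0.06, 0.01, -0.47, 0.01 and 0.18, beside -0.01 over all genes tested. Nkg7, a granule protein, was at 1120 and 1179, 1112, and 783 and 740 CPM in Gzmk-only cells, against 1024 and 1092, 1169, and 702 and 1022 CPM in Gzmb cells, without a call. Prf1, the pore-forming perforin, stayed between 9.45 and 42.7 CPM in Gzmk-only cells and between 17.8 and 32.7 CPM in Gzmb cells. Ccr7, the receptor that takes T cells to lymph nodes, was at 119 and 130, 69.3, and 0 and 52.1 CPM in Gzmk-only cells, against 208 and 470, 73.3, and 67.0 and 285 CPM in Gzmb cells, lower in all 5 libraries at an adjusted p of 0.0504.

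**Figure D2:**
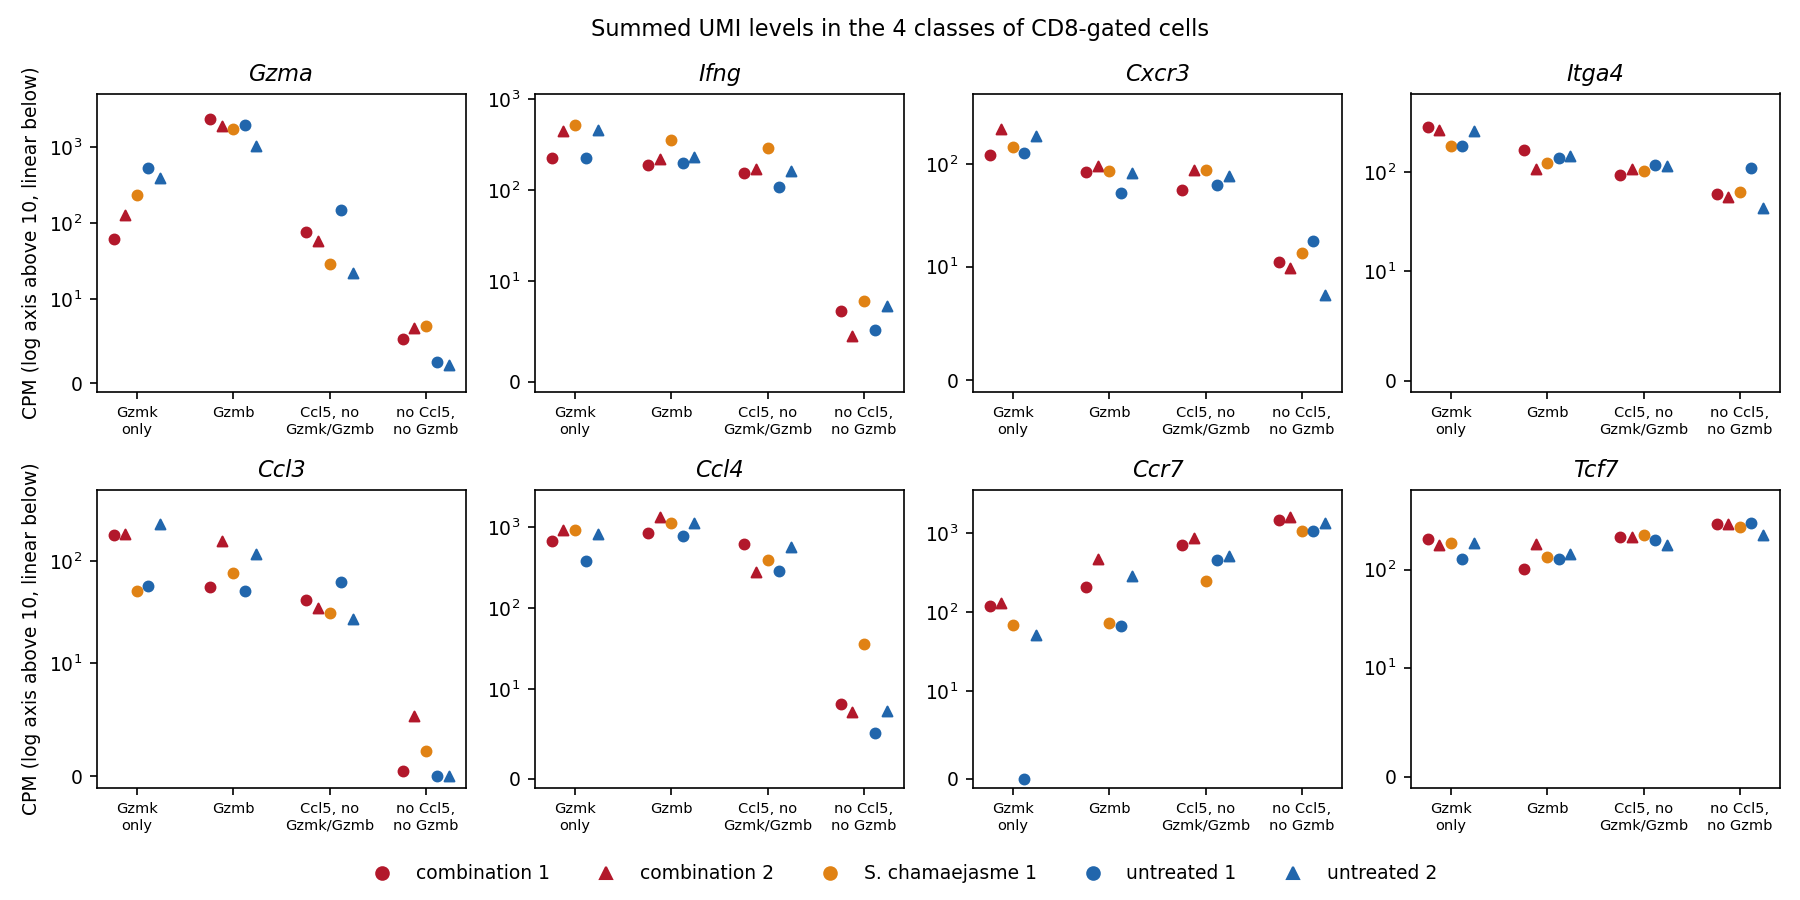
CPM of 8 genes in the summed UMIs of each CD8 class, a point per library, on an axis that is logarithmic above 10 and linear below. Gzma separates Gzmb cells (1022 to 2317 CPM) from Gzmk-only cells (61.9 to 527 CPM), Cxcr3 and Itga4 are highest in Gzmk-only cells, and Ccr7 rises towards the Ccl5-negative cells.

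Against the Ccl5-only cells, which share Ccl5 but hold neither granzyme transcript, Gzmk-only cells had more Ifng, more of the chemokines Ccl3 and Ccl4 and of the receptor Cxcr3, and less of the lymph node homing receptor Ccr7. Of 6404 genes, 183 passed (2.86%), 51 higher (0.796%) and 132 lower (2.06%). Of the naive, memory and stem-like list, 0 of 19 measured genes were higher and 9 lower, with a median of -0.74 beside -0.01 over all genes. Ccr7 (-2.52 ± 0.26, adjusted p = 6.99e-07), Igfbp4 (-2.97 ± 0.53, adjusted p = 0.000643), Dapl1 (-3.19 ± 0.46, adjusted p = 6.04e-05), the neuropeptide receptor subunit Ramp1 (-3.07, adjusted p = 0.000345) and the transcription factor Lef1 (-0.92 ± 0.18, adjusted p = 0.002) fell. Igfbp4, Dapl1 and Ramp1 had only 15, 10 and 5 UMIs in the Gzmk-only cells of all 5 libraries, so their sizes are fitted values near 0 counts. Tcf7, the factor that marks stem-like T cells, was not called: it was at 206 and 180, 186, and 128 and 188 CPM in Gzmk-only cells, against 216 and 214, 227, and 199 and 179 CPM in Ccl5-only cells, lower in 4 of 5 libraries.

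Ccl3, a chemokine of activated T cells, was at 181 and 183, 50.4, and 57.0 and 229 CPM in Gzmk-only cells, against 41.7 and 34.9, 31.3, and 62.3 and 27.3 CPM in Ccl5-only cells. Untreated library 1, which the test left out, is the exception, with the 2 classes nearly level (2.0 ± 0.31, adjusted p = 0.000122 over the other 4). Higher levels were also called for Ifng (1.06 ± 0.14, adjusted p = 1.24e-05), Cxcr3 (1.11 ± 0.17, adjusted p = 0.000122), the death ligand Fasl (1.08 ± 0.20, adjusted p = 0.000792), the small homeodomain protein Hopx (1.48, adjusted p = 0.0003) and Rgs1, a brake on chemokine receptor signals that is high in tissue T cells (0.90 ± 0.10, adjusted p = 1.1e-06). Gzma was higher in 3 of 4 libraries (1.96 ± 0.35, adjusted p = 0.000659), but missed the threshold without the S. chamaejasme library (1.49, adjusted p = 0.0752). Ccl4 was higher (0.89 ± 0.21, adjusted p = 0.0114), but not past the threshold without combination library 2 (0.61, adjusted p = 0.177). Of 16 cytotoxic granule genes 4 rose and 0 fell, and of 17 effector memory genes reported with Gzmk 6 rose and 0 fell. Igkc, an immunoglobulin light chain of B cells, led the genes that rose (5.13 ± 0.79, adjusted p = 0.000122) at 82.6 and 6.66, 15.8, and 0 and 93.8 CPM in Gzmk-only cells, against at most 2.48 CPM in Ccl5-only cells. Igkc is itself one of the B cell markers summed above, and Cd79b, another, was at 10.3 and 19.98, 18.9, and 14.2 and 10.4 CPM in Gzmk-only cells, against 5.21 and 9.96, 11.3, and 11.9 and 17.4 CPM in Ccl5-only cells. The part of B cell RNA in this result was not tested. Of the dissociation and heat shock genes Dnajb1 was higher (0.59, adjusted p = 0.0227), and of the RNA quality genes mt-Nd2 was lower (-0.34, adjusted p = 0.0454), and their part was not tested. With cells thinned to 2000 UMIs and 3 libraries, 1 gene was called. The gate was applied again to the thinned counts, so cells that lost their Gzmk or Gzmb UMI changed class, and 118 Gzmk-only cells were left over all libraries. Depth, cell number and class thus changed together, and their parts were not tested.

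**Figure D3:**
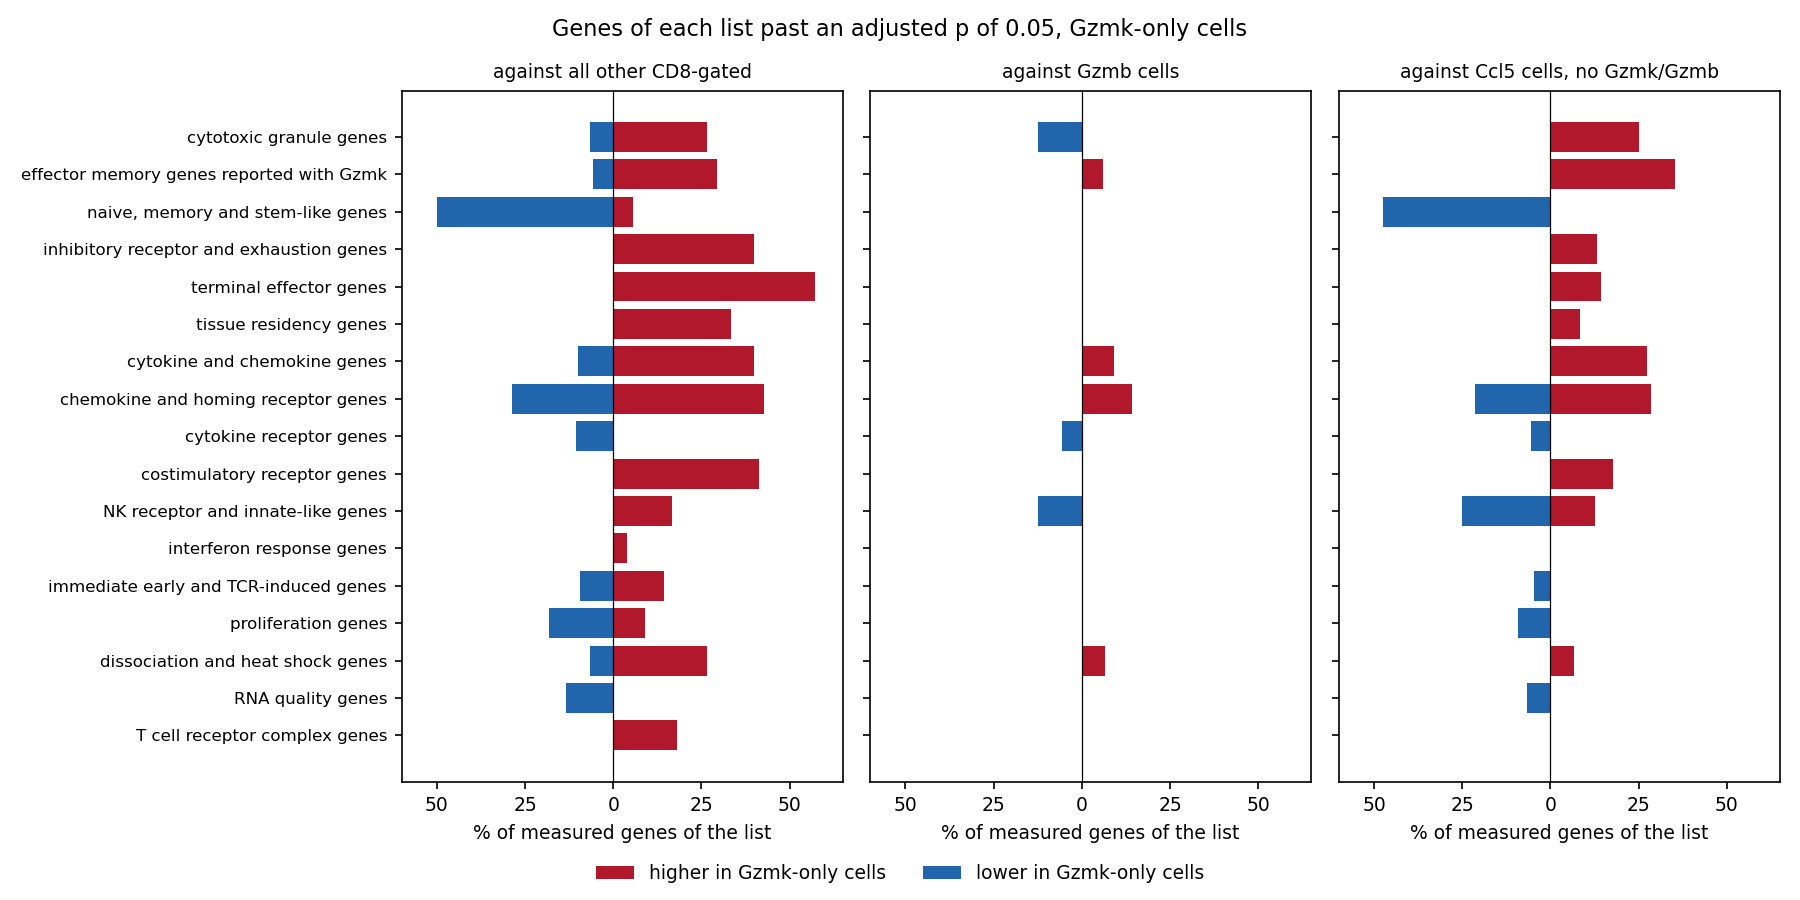
For each list of genes, the percentage of its measured members that were higher (to the right) or lower (to the left) in Gzmk-only cells past an adjusted p of 0.05, against all other CD8-gated cells, Gzmb cells and Ccl5-only cells. The naive, memory and stem-like list is lower against all other cells and Ccl5-only cells. It has 0 calls against Gzmb cells, where 0.234% of all genes tested were called.

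Against all other CD8-gated cells, 388 of 7022 genes passed (5.53%), 174 higher (2.48%) and 214 lower (3.05%). Genes of quiescence and lymph node homing were low: of 18 measured naive, memory and stem-like genes 9 were lower and 1 higher (Ltb, a lymphotoxin chain, 0.44 ± 0.13). Ccr7 was at 119 and 130, 69.3, and 0 and 52.1 CPM in Gzmk-only cells, against 1098 and 1298, 431, and 462 and 931 CPM in the other cells (-3.21 ± 0.16, adjusted p = 4.03e-13). S1pr1, the receptor for exit from tissue, was at 20.6 and 79.9, 18.9, and 71.2 and 10.4 CPM, against 211 and 243, 90.6, and 103 and 150 CPM (-2.21 ± 0.24, adjusted p = 5.81e-07). The largest negative changes by the naming rule included those of Il6ra (-4.71), Igfbp4 (-4.40), Ramp1 (-3.98), Dapl1 (-3.79), Tdrp (-3.65), Ccr7, Atp1b1 (-3.02), the interferon gamma receptor chain Ifngr2 (-3.02) and Rgcc (-2.75). Apart from Ccr7, these rested on few UMIs in the Gzmk-only cells of all 5 libraries. Il6ra had 2, Igfbp4 15 (14 of them in combination library 2), Ramp1 5, Dapl1 10, Tdrp 4, Atp1b1 4, Ifngr2 10 and Rgcc 7. Their sizes are fitted values near 0 counts and no bounds. Tcf7 was again not called (-0.29), with 128 to 206 CPM in Gzmk-only cells and 198 to 260 CPM in the others. Il7r, the receptor of a T cell survival cytokine, was at 156 to 529 CPM against 337 to 412 CPM, also without a call.

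Among effector genes Ccl3 (2.25 ± 0.29, adjusted p = 7.37e-06), Cxcr3 (1.91 ± 0.20, adjusted p = 4.33e-07), Ifng (1.91 ± 0.17, adjusted p = 3.81e-08) and Hopx (1.84, adjusted p = 3.72e-06) rose, and so did Tbx21, the type 1 transcription factor T-bet (1.33 ± 0.24, adjusted p = 0.000664), and Fasl (1.40 ± 0.20, adjusted p = 2.93e-05). Eomes, the T-box factor often paired with Gzmk, had 3.15 to 93.8 CPM per library and no call. Of 15 inhibitory receptor and exhaustion genes 6 rose and 0 fell, with a median of 0.79 beside -0.01 over all genes. Pdcd1, which encodes PD-1, was at 114 and 83.2, 18.9, and 28.5 and 20.8 CPM in Gzmk-only cells, against 16.4 and 25.6, 13.9, and 15.1 and 33.1 CPM in the others (1.56 ± 0.34, adjusted p = 0.00435). Its 2 highest values were those of the combination libraries, untreated library 2 went the other way, and without combination library 1 the call was lost (1.0, adjusted p = 0.223). Ctla4 rose (0.91 ± 0.14, adjusted p = 8.28e-05) and Tigit did too (0.95 ± 0.22, adjusted p = 0.00722), the second not without combination library 1 (0.78, adjusted p = 0.156) or untreated library 2 (0.90, adjusted p = 0.069). Tox and Lag3, other genes of exhausted T cells, were not called. After thinning to 2000 UMIs 53 genes were called, among them Cxcr3, Ifng and Ccr7, while Ccl3 (1.20, adjusted p = 0.132), Pdcd1 (1.28, adjusted p = 0.512), Tigit (0.54, adjusted p = 0.767) and Itgae (0.55, adjusted p = 0.529) were not.

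Of 12 tissue residency genes 4 rose: Rgs1 (1.31 ± 0.12), Cxcr6, a receptor of tissue T cells (1.13 ± 0.18), Itgae, the integrin chain CD103 (1.04 ± 0.16), and Ahr (0.90 ± 0.17). Of 14 terminal effector genes 8 rose, among them the NK receptor Klrc1 (1.25 ± 0.15), S100a6 (0.91 ± 0.20) and Id2 (0.53 ± 0.12), and 0 fell. Markers of terminally differentiated killer cells were rare: Klrg1 was found in 3 of 189 Gzmk-only cells and Cx3cr1 in 0, which allows up to 1.59%. Mki67, a marker of dividing cells, was found in 2. These genes were rare in the Gzmb, Ccl5-only and Ccl5-negative cells as well. Klrg1 was found in 1.55%, 0.152% and 0.223% of them, Cx3cr1 in 0.518%, 0.152% and 0.0743%, and Mki67 in 2.42%, 1.22% and 0.149%. Of 19 cytokine receptors 0 rose and 2 fell (Ifngr2 and Il4ra). Of 15 heat shock genes 4 rose, led by Hspa1a (0.82 ± 0.11), and 1 fell, while of 15 RNA quality genes 0 rose and 2 mitochondrial genes fell (mt-Nd2 and mt-Nd5, each by 0.42). The part of sample handling in these differences was not tested. Gzma was lower than in the mixture (-1.10 ± 0.25, adjusted p = 0.00698), a call that was lost without combination library 1 (-0.76, adjusted p = 0.198) or the S. chamaejasme library (-0.96, adjusted p = 0.0825), and in untreated library 2 it was higher, at 396 CPM against 216 CPM.

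The Gzmk-only cells were more often part of expanded clones than other CD8-gated cells. A clone is a deposited clonotype, and it was called expanded when it held at least 2 CD8-gated cells of the library. In the combination libraries 28.6% and 46.2% of Gzmk-only cells were in expanded clones, against 6.36% and 10.3% of the other CD8-gated cells. In the S. chamaejasme library the shares were 76.4% against 41.2%, and in the untreated libraries 50% and 78.3% against 33.1% and 16.8%. The difference was 34.3 points on average (SD 17.3, range 16.9 to 61.5) and above 0 in 5 of 5 libraries. A two-sided exact sign-flip permutation test gave p = 0.0625, the smallest it can give with 5 libraries. By class the difference was 10.4 points against Gzmb cells (range -3.72 to 28.3, higher in 4 of 5, exact p = 0.125), 27.3 points against Ccl5-only cells and 52.8 points against Ccl5-negative cells (both higher in 5 of 5, exact p = 0.0625).

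The 189 cells belonged to 140 clones, of which 63 were expanded. Among the 140 clones 47 also held Gzmb cells, 40 also held Ccl5-only cells, 9 also held Ccl5-negative cells, and 23 held at least 2 Gzmk-only cells. The largest clone held 7.14% and 5.77% of the Gzmk-only cells in the combination libraries, 9.72% in the S. chamaejasme library and 14.3% and 21.7% in the untreated libraries. In untreated library 2 the 2 largest clones held 39.1% of them, so levels from that library rest partly on few clones. For cells in expanded clones, the share of Gzmk-only cells among their clone partners was 7.26 points higher for Gzmk-only cells than for other CD8-gated cells (range -0.961 to 17.3, higher in 4 of 5, exact sign-flip permutation p = 0.125).

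**Figure D4:**
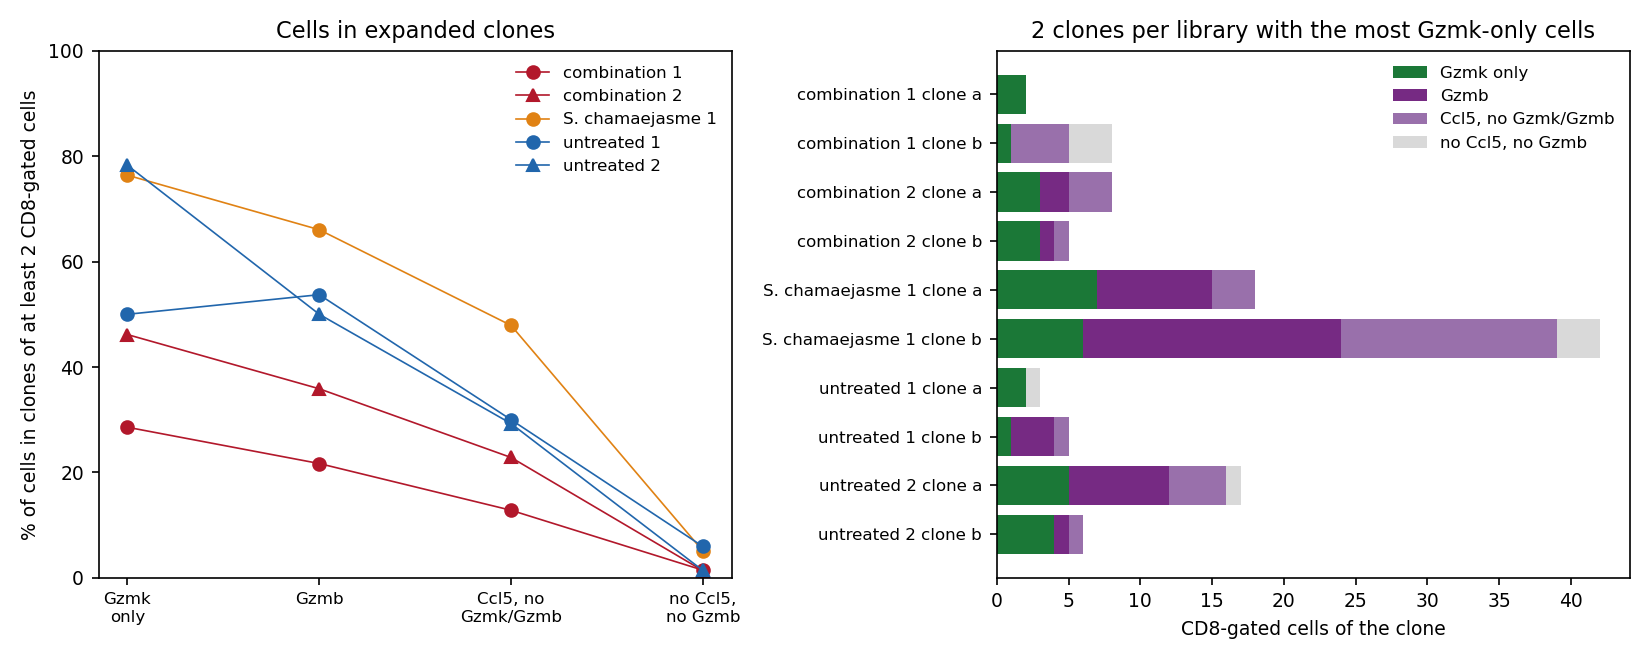
Left, percentage of cells of each CD8 class in clones of at least 2 CD8-gated cells, a point per library; right, CD8-gated cells of the 2 clones per library with most Gzmk-only cells, by class. Gzmk-only cells lie at 28.6% to 78.3%, Ccl5-negative cells at 1.37% to 5.95%, and 7 of the 10 clones hold Gzmb cells.

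Cells with the same receptor allow the classes to be compared within clones. In the 47 clones with both classes, 91 Gzmk-only and 138 Gzmb cells were pooled. Gzma was 227 CPM in the Gzmk-only cells and 819 CPM in their Gzmb kin, lower in each of the 5 libraries. Cxcr3 was 184 against 95.9 CPM and Sidt1 62.9 against 21.9 CPM, both higher in 5 of 5 libraries, and Ms4a4b was 680 against 373 CPM and Itga4 224 against 158 CPM, both higher in 4 of 5. Il4ra (128 against 235 CPM), Crem (118 against 214 CPM) and Vim (577 against 952 CPM) were lower in 5 of 5. Ifng was 456 CPM in the Gzmk-only cells and 491 CPM in their kin, higher in 2 of 5 libraries. Ccr7 was 20.1 CPM against 8.41 CPM in these clones, higher in 2 of 5 libraries, lower in combination library 2 (48.1 against 55.3 CPM) and at 0 in both classes of the untreated libraries. These are pooled levels without a test, and untreated library 1 entered with 4 Gzmk-only cells and combination library 1 with 5. The S. chamaejasme library gave 49 of the 91 Gzmk-only and 88 of the 138 Gzmb cells, and Gzma there was 238 against 396 CPM. Apart from Ccr7, the genes were taken from those called between the 2 classes. Cells of these clones were part of the sums behind those calls, so a like direction is partly built in.

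Among the Gzmk-only cells themselves, the 112 in expanded clones were set beside the 77 others. Ccr7 was 20.8 CPM in expanded cells and 183 CPM in single cells, Lef1 74.7 against 162 CPM and the inhibitory receptor Lag3 22.8 against 69.5 CPM, none of these higher in the expanded cells of any library. Ccl4 (1094 against 649 CPM), Cxcr6 (359 against 114 CPM) and Itgae (251 against 158 CPM) were higher in the expanded cells of 5 of 5 libraries. Tcf7 (203 against 190 CPM), Cxcr3 (174 against 188 CPM), Gzma (206 against 232 CPM) and Ifng (479 against 401 CPM) lay closer together when pooled. Within libraries Gzma was lower in the expanded cells of 4 of 5, and Tcf7 was higher in 3, Cxcr3 in 2 and Ifng in 2. Among other homing genes, S1pr1 was higher in the expanded cells of 3 libraries, and Klf2 and Itga4 in 2. Expanded and single cells numbered 8 and 20, 24 and 28, 55 and 17, 7 and 7, and 18 and 5 in the combination, S. chamaejasme and untreated libraries, so 55 of the 112 expanded cells come from the S. chamaejasme library. These genes were chosen after their values were seen and have no test.

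The receptors of the Gzmk-only cells were counted once per clone. The segment TRAV14D-2 made 11.5% and 4.55% of their alpha chains in the combination libraries, 16.3% in the S. chamaejasme library and 23.1% and 30.0% in the untreated libraries, against 5.33% and 2.41%, 12.7%, and 13.8% and 15.2% in Gzmb cells. Pooled, it was 13.2% of chains in Gzmk-only cells (18 of 136), 9.64% in Gzmb cells, 5.58% in Ccl5-only cells and 1.42% in Ccl5-negative cells. TRAV16N was the most frequent segment, at 15.4%, 14.7%, 11.2% and 6.92% in the same classes. The beta chain CDR3 of Gzmk-only clones was longer than that of other CD8-gated clones by 0.566 amino acids on average (SD 0.314, range 0.140 to 0.991, longer in 5 of 5 libraries). The alpha chain CDR3 was -0.188 amino acids apart and longer in 1 of 5. By class, the mean beta chain CDR3 of Gzmk-only clones was 14.52 and 14.26, 14.76, and 14.23 and 15 amino acids. In Gzmb clones the mean was 13.95 and 14.17, 14.50, and 14.375 and 14.06. In untreated library 1 the Gzmk-only clones thus had a shorter beta chain CDR3 than Gzmb clones and Ccl5-only clones (14.26). Of 135 beta chain CDR3 sequences, 1 occurred in Gzmk-only cells of 2 libraries. Segments and lengths were singled out after their values were seen and are given without a test, and a clone in several classes counts in each.

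Within the Gzmk-only cells, the combination libraries had less Gzma and more Ly6c2 and Ms4a4b than the untreated libraries. These groups of 2 did not overlap, but full separation of 2 against 2 gives an exact permutation p of 0.333 at best. The share of all genes without overlap is not given here. For Ms4a4b the naming rule itself asked for no overlap among the libraries in the fit. The test of the combination against untreated had 1 residual degree of freedom, because only untreated library 2 with its 23 cells met the minimum of 20. Its spread came from the combination pair and from values shared across genes. The difference between the 2 untreated libraries did not enter its p-values, which can therefore be far too small. Of 4064 genes, 60 passed (1.48%), 24 higher (0.591%) and 36 lower (0.886%). With DESeq2's size factors in place of edgeR's TMM scaling 11 passed, 0 higher and 11 lower, and by DESeq2 2 passed. With sums of at least 10 cells, which lets in both untreated libraries, 33 passed, and with that setting each left-out library gave 9 to 60. The number of genes called thus depended on the scaling, the tool and single libraries.

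Gzma was at 61.9 and 127 CPM in the combination libraries, 233 CPM in the S. chamaejasme library and 527 and 396 CPM in the untreated libraries, with no overlap between the combination and untreated groups. The change was -1.99 (adjusted p = 5.71e-05), and -2.24 with both untreated libraries (adjusted p = 1.32e-08). With both untreated libraries in the fit, the call held whichever library was left out (-2.88 to -1.86), but with DESeq2's size factors the adjusted p was 0.0844, and DESeq2 did not call it. The UMIs came from few cells: 12 UMIs in 6 of 28 cells and 38 in 12 of 52 cells of the combination libraries, 74 in 15 of 72 cells of the S. chamaejasme library, and 37 in 4 of 14 cells and 38 in 10 of 23 cells of the untreated libraries. In the other CD8-gated cells Gzma was at 408 and 305, 590, and 944 and 216 CPM, where the groups overlapped. Ly6c2, a surface protein of memory CD8 T cells, had 29 and 43 UMIs in the Gzmk-only cells of the combination libraries, 12 in the S. chamaejasme library and 0 in both untreated libraries. Set against a floor of 3 counts in the 2 untreated libraries together, it was at least 7.92-fold higher in the combination, and it was found in 7 of 28, 9 of 52, 3 of 72, 0 of 14 and 0 of 23 cells. Over all libraries Ly6c2 was found in 10.1% of Gzmk-only cells, 11.1% of Gzmb, 20.1% of Ccl5-only and 28.5% of Ccl5-negative cells. By library the last 3 shares ran from 3.72% to 22.9%, 8.81% to 37.8% and 13.3% to 39.0%. In each of these 3 classes the highest share was that of a combination library and the lowest that of the S. chamaejasme library. A high Ly6c2 share in combination libraries was thus not particular to Gzmk-only cells. Ms4a4b was at 748 and 946, 747, and 456 and 281 CPM (1.6, adjusted p = 5.13e-05), but with both untreated libraries in the fit the call was lost when any library was left out except untreated library 1 (0.88 to 1.36, adjusted p up to 0.525). In the other CD8-gated cells it ran in the same direction, at 543 and 474, 457, and 270 and 304 CPM.

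Transcripts that track library quality moved with the same groups. AY036118, often read as a sign of ribosomal RNA in a library, was at 537 and 819 CPM in Gzmk-only cells of the combination libraries, 923 CPM in the S. chamaejasme library and 3148 and 4136 CPM in the untreated libraries, and at 1275 and 1208, 728, and 2676 and 4113 CPM in the other cells. Of 15 RNA quality genes 0 were higher and 2 lower (AY036118 and Gm42418). Of markers of other cell types, Trgv2 of the gamma delta T cell list was called higher for the combination (adjusted p = 0.0456, 1 of 3 measured genes of the list) and for S. chamaejasme (adjusted p = 0.0113). It was at 77.4 and 59.9 CPM in the combination libraries, 91.4 CPM in the S. chamaejasme library and 85.5 and 0 CPM in the untreated libraries, so the untreated library that the fit left out lay within the range of the others. Cd40lg of the helper T cell list was called higher for S. chamaejasme (adjusted p = 0.0362), at 25.8 and 16.6, 85.1, and 0 and 0 CPM. The part of these transcripts in the differences between groups was not tested. Several leading genes rested on untreated library 2. Fos, an immediate early transcription factor, was at 531 and 859, 678, and 499 and 156 CPM (2.17), and without untreated library 2, in the setting that lets in library 1, its change was 0.47. Ubald2 was at 655 and 772, 659, and 684 and 2500 CPM (-1.80), and without untreated library 2 its log2 change turned direction, to 0.0432. Nr4a3, a nuclear receptor induced by TCR signals, was at 56.8 and 59.9, 69.3, and 114 and 292 CPM (-2.30, and -0.98 without untreated library 2). Cd7 was at 263 and 323, 328, and 356 and 72.9 CPM and also turned direction without that library (2.02, then -0.29). Cxcr3 (124 and 223, 148, and 128 and 188 CPM), Ifng, Tcf7 and Cd69 had no call. Pdcd1, whose product the antibody binds, was at 114 and 83.2, 18.9, and 28.5 and 20.8 CPM, higher in both combination libraries than in the other 3, without a call (1.93 with both untreated libraries, adjusted p = 0.196).

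The S. chamaejasme library against untreated library 2 is a comparison of single libraries whose spread is taken from the combination pair. Of 4064 genes, 81 passed (1.99%), 35 higher (0.861%) and 46 lower (1.13%), against 4 with DESeq2's size factors (0 higher, 4 lower), 1 by DESeq2 and 20 with both untreated libraries. Tigit, an inhibitory receptor, was at 72.5 CPM in the S. chamaejasme library and 256 and 261 CPM in the untreated libraries, with the combination at 170 and 183 CPM (-1.83, adjusted p = 0.0169, and -1.85 with both untreated libraries, adjusted p = 0.00993). Without untreated library 2 in that setting the adjusted p was 0.0667, at a change of -1.83, and it was 0.142 without combination library 1, 0.115 without combination library 2 and 0.207 with DESeq2's size factors at 20 cells. Ccl3 was at 50.4 CPM, against 57.0 and 229 CPM in the untreated libraries, so its call (-2.17, adjusted p = 0.0054) rested on untreated library 2 (-0.19 without it). Cxcr6 was at 362 CPM, against 99.7 and 135 CPM, and passed only with both untreated libraries (1.57, adjusted p = 0.0258). Of 15 RNA quality genes 0 were higher and 5 lower in this comparison.

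Whether the change with the combination differed between Gzmk-only cells and the other CD8-gated cells was tested as an interaction over the same 4 libraries. Its 1 residual degree of freedom again came from the combination pair. Of 8905 genes, 18 passed (0.202%), 14 higher (0.157%) and 4 lower (0.0449%), with 0 by DESeq2 and 517 at an unadjusted p under 0.05. The median over all genes was 0.31 on the log2 scale, and values are read relative to it. The other CD8-gated cells were a mixture that differed by library. Gzmb cells made up 12.95% and 12.96% of CD8-gated cells in the combination libraries and 41.9% and 17.6% in the untreated libraries. Ccl5-negative cells made up 64.4% and 61.8%, and 29.1% and 55.3%. The part of this make-up in the interaction was not tested. Gzma differed by -2.56 (adjusted p = 1e-07): it was lower in the combination in Gzmk-only cells and overlapped between groups in the others. With both untreated libraries it was -1.62 (adjusted p = 0.00101), and then -0.80 without untreated library 2 (adjusted p = 0.61) and -1.14 without combination library 1, neither of them a call. S100a6, a calcium-binding protein of effector T cells, was at 485 and 353, 488, and 513 and 146 CPM in Gzmk-only cells, against 164 and 118, 376, and 344 and 226 CPM in the other cells (2.31, adjusted p = 2.26e-05, and 1.6 with both untreated libraries, adjusted p = 0.000942). In that setting it was not called without untreated library 2 (1.14, adjusted p = 0.0834) or either combination library (1.61 and 1.59).

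**Figure D5:**
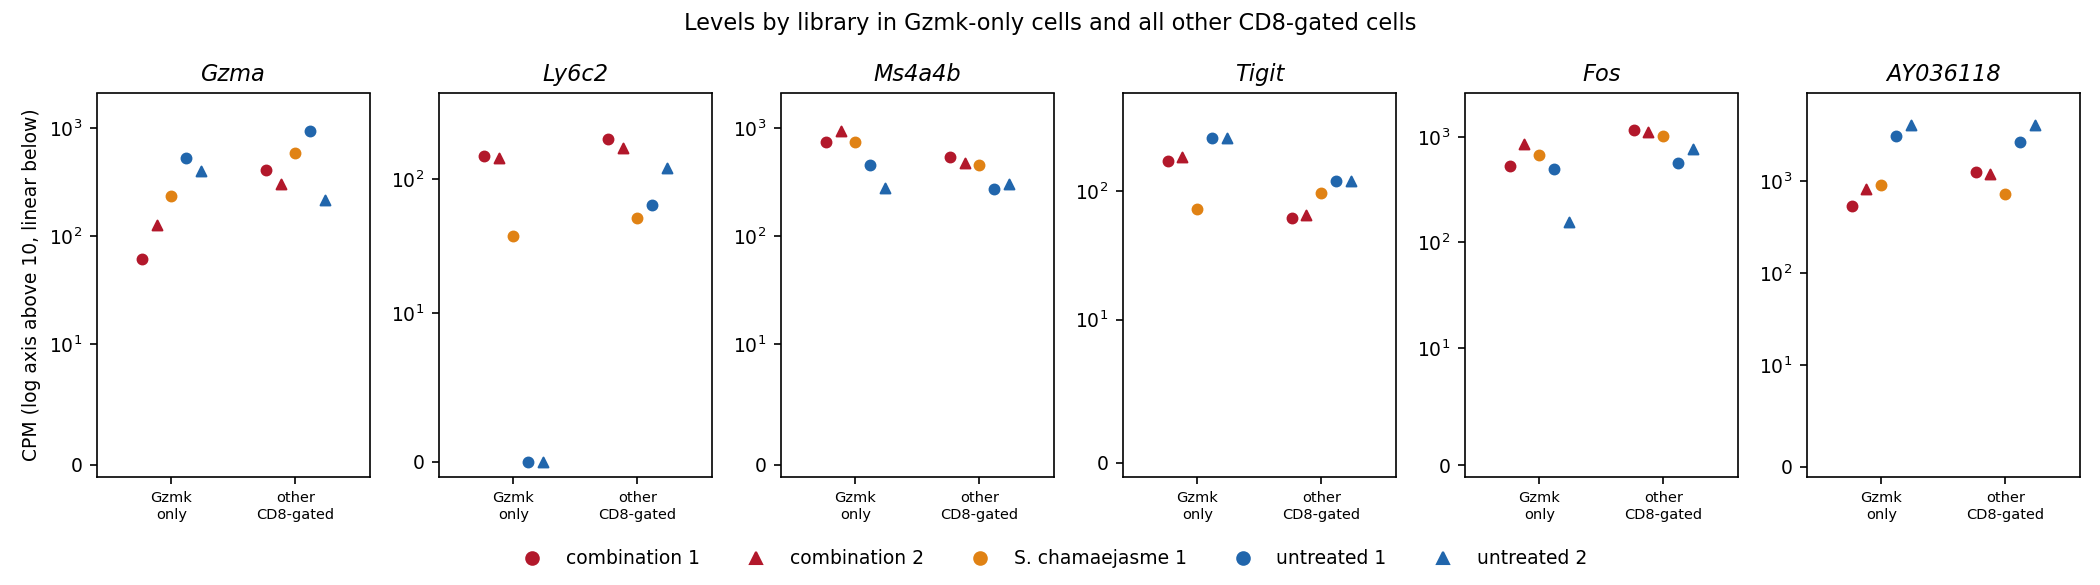
CPM of 6 genes in Gzmk-only cells and in all other CD8-gated cells, a point per library coloured by group, on an axis that is logarithmic above 10 and linear below. Gzma orders the groups in Gzmk-only cells (61.9 and 127, 233, 527 and 396 CPM), Ly6c2 is at 0 in the untreated Gzmk-only cells, and AY036118 is highest in the untreated libraries in both sets of cells.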

How the data were processed

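For 5 RNA libraries the authors deposited UMI counts of 31053 features in each called cell, not normalized, and lists of TCR contigs with counts of reads and UMIs per contig in 5 matched libraries. Per the submitters' processing notes, Cell Ranger 3.1.0, STAR and the mm10 genome were used; the annotation release is not given in the sources used here. Libraries were prepared with a Chromium 5′ kit, per the labels' protocols. The cells and gene lists were chosen with earlier results of these data known.

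Cells were gated on 300 genes, 10% mitochondrial UMIs, a productive TRB contig and the UMIs named in the report. No doublet caller was run: 7 Gzmk-only cells and 120 other CD8-gated cells held at least 2 productive TRB chains, and an alternative left them out. UMIs were summed per library and class, with at least 20 cells per sum, and tested by edgeR 4.0.16 under R 4.3.3 (filterByExpr and TMM, glmQLFit and glmQLFTest, two-sided, Benjamini-Hochberg over all genes tested, threshold 0.05). Classes were compared with the library as a block, and groups by contrasts of 4 sums. The genes of the gate (Cd8a, Cd8b1, Cd4, Ccl5, Gzmk, Gzmb) were left out of tests. Printed levels per library and class are CPM after TMM scaling over all 5 libraries. Marker sums and the levels within clones and in expanded and single cells are CPM without that scaling. The SE was taken as the size of the log2 change divided by the root of its F statistic. Sums of Gzmk-only cells held 180121 and 282826 UMIs (combination), 297734 (S. chamaejasme) and 61840 and 90960 (untreated), and these depths limit the precision. Shares have exact Clopper-Pearson 95% intervals.

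Genes were named by a rule: the 10 largest changes in each direction past the threshold that moved the same way in every library (for groups, without overlap) at a mean of at least 20 CPM, a panel of 28 genes, and leading genes of each list. Some genes that the rule names are not reported here. Alternatives were DESeq2 1.42.0, its size factors, no filter, thinning to 2000 UMIs, at least 2 Gzmk UMIs, no library block, each library left out, and sums of at least 10 cells, the last added after seeing the data. After thinning, the gate was applied again, so a cell could change class or leave the gate. The tests were checked on simulated data, where the group and interaction tests missed most of the changed genes and the class and group tests also made false calls. Coordinates come from the GENCODE annotation of GRCm38. Other steps used matplotlib 3.10.9, pandas 2.3.3, scipy 1.17.1 and numpy 2.4.6 in Python 3.11.15.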

Additional observations from a re-analysis of the deposited data

Results flagged for a closer look

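Genes whose change with the combination differed between Gzmk-only cells and the other CD8-gated cells, by the interaction test on 4 libraries, are listed with the size of that difference on the log2 scale; the median over all genes was 0.31. The difference was positive for Ly6c2 (10.3, a fitted value against 0 counts and no bound), S100a6 (2.31), Fos (1.68), Ms4a6b (1.44), Jun (1.4), Cd28 (1.32), Cd52 (0.877), Pfn1 (0.802) and Actb (0.683), and negative for Gzma (-2.56). DESeq2 called 0 of them. The other CD8-gated cells were a mixture whose make-up differed by library, and its part in these differences was not tested. With both untreated libraries in the fit, Ly6c2 (adjusted p = 0.00349), S100a6 (0.000942), Cd52 (0.0356) and Gzma (0.00101) passed the threshold, and Fos (0.50), Jun (0.19), Ms4a6b (0.73), Cd28 (0.89), Pfn1 (0.41) and Actb (0.35) did not. When untreated library 2 was then left out, none of the 10 passed, and Fos (-0.39) and Jun (-0.64) turned direction. Groups of 4 or more libraries do not occur here, so no library could be tested as standing apart from its group.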

How the results depend on the processing

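Between groups no paired analysis was possible because the labels give no replicate numbers, while classes were paired within libraries. The count against all other CD8-gated cells, 388, was 258 by DESeq2, 53 after thinning (3 libraries), 66 with at least 2 Gzmk UMIs (2 libraries) and 121 without the library block. It ran from 174 to 413 with a library left out, and from 231 to 388 when that was done with sums of at least 10 cells. The count against Gzmb cells, 15, was 26 by DESeq2, 80 without a filter, 1 without the block and 29 with sums of at least 10 cells, and 7 to 16 with a library left out. On sums of at least 10 cells that last range was 11 to 29, with 24 without the S. chamaejasme library. The count against Ccl5-only cells, 183, was 1 after thinning, 21 with at least 2 Gzmk UMIs and 46 without the block, and 94 to 183 with a library left out. Between the combination and untreated, 60 became 11 with DESeq2's size factors, 2 by DESeq2 and 33 with sums of at least 10 cells, and 9 to 60 with a library left out (25 without untreated library 2). Between S. chamaejasme and untreated, 81 became 4, 1 and 20 in the same settings, 44 without a filter and 51 without cells of several TRB chains, and 8 to 81 with a library left out. The interaction count, 18, was 0 by DESeq2 and 2 without cells of several TRB chains, and 3 to 26 with a library left out. Fewer libraries or cells are part of thinning, of the higher Gzmk minimum and of leaving out a library. Thinning also gated the cells again on the thinned counts. For the other settings the cause was not tested.

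The difference in the share of Gzmk-only cells, 0.452 points, ran from -1.03 to 1.93 with a library left out and was -0.0816 with at least 2 Gzmk UMIs. The difference in expanded cells, 34.3 points, kept its sign under each alternative run, at 27.5 to 38.7 with a library left out and 22.8 after thinning. The difference in clone partners, 7.26 points, was 4.74 to 9.31 with a library left out, 21.9 with at least 2 Gzmk UMIs, 11.2 after thinning, 10.9 with clones by TRB CDR3 nucleotides and 4.77 with at least 1 Cd8a or Cd8b1 UMI. Of single genes named, 2903 values kept direction and side of the threshold, 536 lost the call, 31 gained it and 11 turned direction. The last were Gpr15 against all other cells with at least 2 Gzmk UMIs (-0.23), Ly6a against them without the S. chamaejasme library (-1.75, and -1.76 with sums of at least 10 cells; 0.67 without combination library 2), and, with sums of at least 10 cells and without untreated library 2, Cd7 (-0.29) and Ubald2 (0.0432) for the combination, Isg20 (-0.39), Xaf1 (-0.73), Cd7 (-0.14) and Dcp2 (0.13) for S. chamaejasme, and Fos (-0.39) and Jun (-0.64) for the interaction. Group and interaction fits at 20 cells were not run after thinning, with at least 2 Gzmk UMIs or without untreated library 2, since no untreated sum was left, nor without either combination library, since no residual degree of freedom was left. Without untreated library 1 the fits at 20 cells are unchanged, as it was not in them.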
